A study of Mus musculus with 14 samples.

Results

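Potassium channel genes were followed across the estrous cycle in the uterus of WT mice and of mice labelled HIF2A cKO. The genes were the rows of the deposited table whose symbol begins with Kcn followed by a family letter code and a number. Of 92 such symbols, 40 had at least 1 FPKM (fragments scaled to the length of the transcript and to the total of the library) in at least 3 of 14 libraries and form the set followed here, out of 14278 genes that passed the same filter. These 40 genes were therefore selected on measured values, the FPKM levels themselves. They comprised 5 of 14 two-pore channel genes, 2 of 15 inward rectifiers, 7 of 8 calcium- or sodium-activated channels, 15 of 40 voltage-gated pore subunits and 11 of 15 auxiliary subunits.

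Potassium channels let potassium leave the cell and so hold the membrane potential negative. In the smooth muscle of the uterine wall, this limits the opening of voltage-gated calcium channels and the force of contraction, and in the epithelium it supplies the driving force for chloride and fluid secretion. Most channels are built from pore-forming subunits, and auxiliary subunits change how readily the pore opens, so the mixture of genes expressed determines the current that a cell can carry.

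Gene expression was measured by RNA sequencing of total RNA from whole uterus of unexposed FVB/N mice aged 2 months. There were 4 libraries of WT mice at diestrus, 4 of HIF2A cKO mice at diestrus, 3 of WT mice at estrus and 3 of HIF2A cKO mice at estrus. Diestrus is the phase in which progesterone dominates, and estrus follows the preovulatory rise of estrogen. HIF2A is the hypoxia-inducible transcription factor encoded by Epas1. The labels do not name the Cre driver, the deleted exons or the genotype of the WT controls beyond WT, and no label says that each library came from a separate animal. The p-values thus cover only the spread of the libraries, part or all of which may be technical.

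Epas1 was not lower in the HIF2A cKO libraries. It stood at 34.8 ± 5.82 FPKM (mean ± SD) in WT and 39.5 ± 4.44 in HIF2A cKO at diestrus (n = 4 each, exact two-sided permutation p = 0.257). At estrus it stood at 32.9 ± 1.56 and 41.2 ± 4.01 (n = 3 each, exact permutation p = 0.1, the smallest that 3 against 3 allows). A whole-gene FPKM value does not show the loss of single exons, so the genotype is given below as labelled. The markers of uterine tissue were detected, and no gene of the smooth muscle, epithelial or stromal marker lists was at 0 in all libraries. The diestrus libraries numbered 3 stood apart from their groups, with a mean correlation to the other libraries of their group of 0.964 in WT and 0.960 in HIF2A cKO, beside 0.973 to 0.979 for the other diestrus libraries and 0.989 to 0.991 at estrus. Values without them are given beside the results that they moved most.

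The filter divided the family unevenly. Among the 52 symbols below it, 18 never passed 0.1 FPKM, and the 11 that passed 0.5 FPKM in some library were Kcna2, Kcna5, Kcna6, Kcnf1, Kcnh1, Kcnj10, Kcnj4, Kcnk13, Kcnq3, Kcnt1 and Kcnv2. No pore subunit of the Kcna (Shaker-type) group passed the filter. Just inside the threshold were Kcnc2, with at least 1 FPKM in 3 libraries, and Kcnab3 and Kcng4, each with 4. Just outside were Kcna2, with a highest value of 1.41 FPKM and 2 libraries at 1 FPKM or more, and Kcnj4, with 1.14 FPKM and 2 libraries. Of the 40 genes, 23 had at least 1 FPKM in all 14 libraries. Kcnc2 reached 1 FPKM at estrus only, and Kcnd2, Kcng4, Kcnip1 and Kcnq5 at diestrus only. Those 5 genes passed the filter through the stage in which they were high, so their direction between stages was favoured by the selection. At diestrus, Kcnip2 reached 1 FPKM only in WT libraries 1 and 4 (1.97 and 2.13 FPKM). At estrus, Kcnd1 did so only in HIF2A cKO libraries 1 and 2 (1.13 and 1.17) and Kcnab3 only in WT library 1 (1.25). Kcnip2 thus met the filter through estrus and Kcnd1 and Kcnab3 through diestrus, so their direction was favoured too. Kcnd2, Kcng4 and Kcnab3 met the filter in WT (4, 3 and 4 libraries) but not in HIF2A cKO (1, 1 and 0 libraries), so for them a higher WT level was favoured in the same way.

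The family was mostly of low abundance, with 22 of the 40 genes at a mean under 5 FPKM and 7 at 10 FPKM or more. FPKM is scaled by transcript length, so these levels can be set beside each other. The highest mean levels were those of Kcnk1, Kcnh2, Kcnj8, Kcne4 and Kcnn4. Kcnh2 encodes ERG1, a voltage-gated channel that repolarises heart and uterine smooth muscle. Its diestrus levels were 36.8, 28.2, 16.5 and 42.6 FPKM in WT and 49.5, 45.7, 31.2 and 34.9 in HIF2A cKO, here and below in the order of the library numbers 1, 2, 3 and 4. At estrus they were 23.1, 21.9 and 23.3 in WT and 30.4, 31.9 and 26.98 in HIF2A cKO, in the order 1, 2 and 4. WT diestrus library 3 was the lowest of all, the WT stages overlapped, and neither cycle difference was called (WT log2 difference -0.35 ± 0.25, adjusted p = 0.245, HIF2A cKO adjusted p = 0.176). Where 2 runs of values are given for a genotype, the first is diestrus and the other estrus. Here and below, differences are on the log2(FPKM + 1) scale with ± their standard error, from a limma fit over all 14278 genes, and a gene is called where the Benjamini-Hochberg adjusted p over these genes is under 0.05. Without WT diestrus library 3, Kcnh2 fell from diestrus to estrus in WT at an adjusted p of 0.00947 and in HIF2A cKO at 0.0433. A library outside the groups compared does not enter their difference. Leaving it out, here and below, moves only the shared estimate of the spread and the adjusted p.

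**Figure D1:**
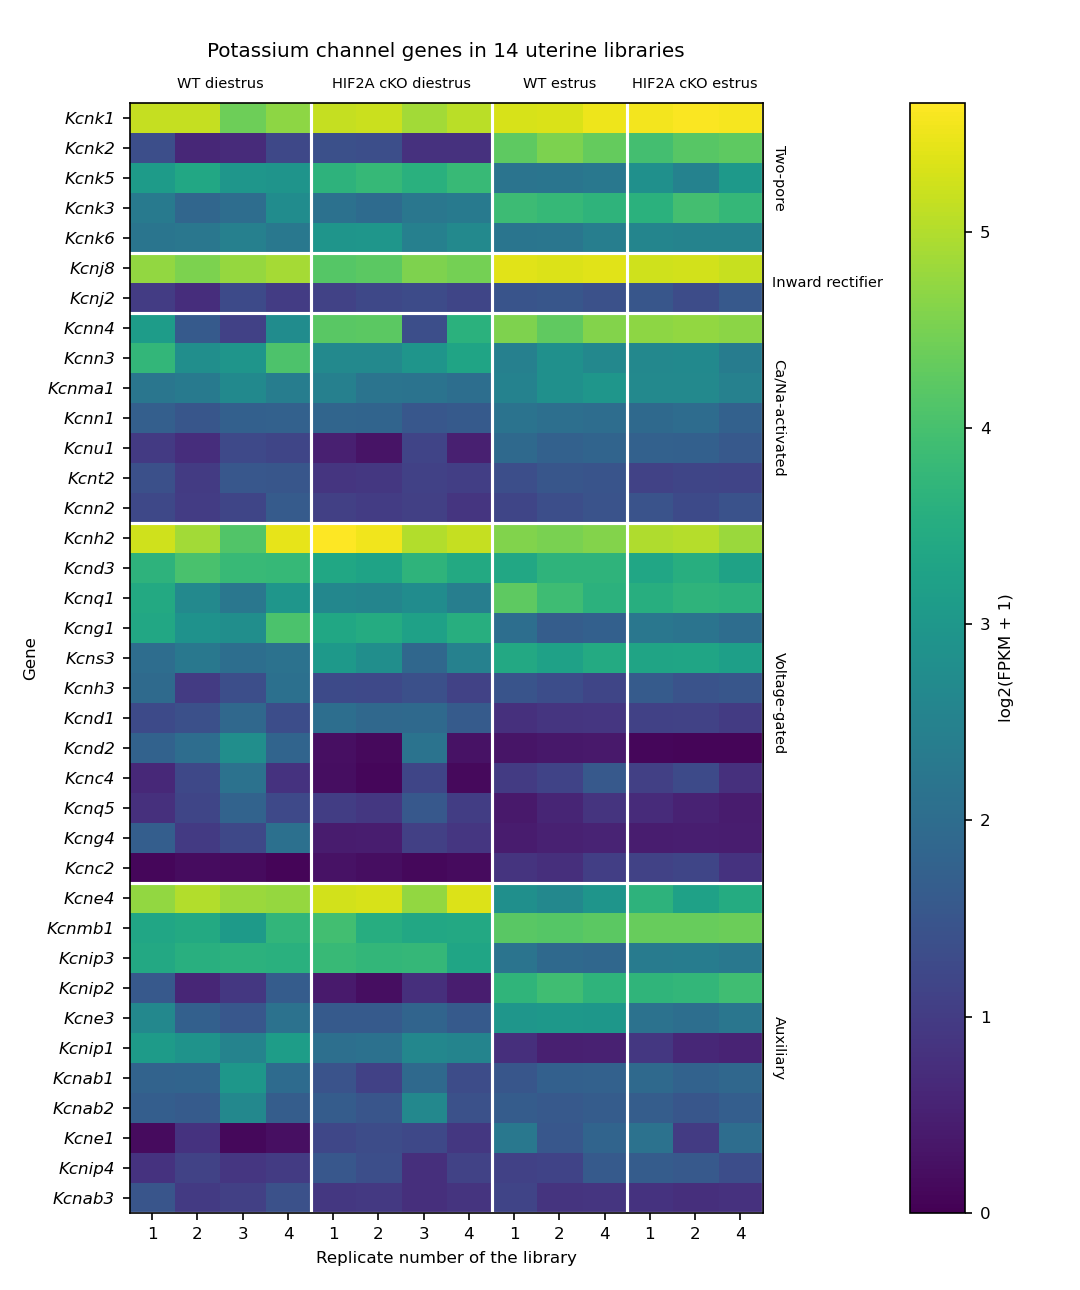
Level of 37 of the potassium channel genes in each of the 14 libraries, as log2(FPKM + 1) by colour, with genes in rows by class and libraries in columns by group and replicate number. Kcnk2 and Kcnip2 change from dark at diestrus to bright at estrus, Kcne4 and Kcnip1 the other way, and the columns numbered 3 differ from their neighbours for Kcnn4, Kcnd2 and Kcnab2.

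From diestrus to estrus in WT, 17 of the 40 genes rose and 11 fell. The two-pore channel Kcnk2 and the Kv4 partner Kcnip2 rose most on the log2(FPKM + 1) scale, and the Kv4 partner Kcnip1 and the KCNQ1 inhibitor Kcne4 fell most. Over all genes tested, 23% were called higher and 34.1% lower at estrus in WT. The share called higher among these genes was 42.5%, above that background, and the share called lower was 27.5%, below it. With median-of-ratios scaling the share of higher genes among all calls in WT moved from 40.3% to 51.2%, while the channel genes stood at 17 higher and 10 lower. The median log2 difference of the 40 genes was 0.04, beside -0.09 over all genes, and the median absolute difference was 0.70, beside 0.33. Of the 28 called genes, 5 were those named above that reached 1 FPKM in 1 stage only. Kcnip2 and Kcnd1, whose direction the selection also favoured, were called as well.

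In HIF2A cKO, 14 of the 40 genes rose at estrus and 9 fell, beside 25.5% of all genes called higher and 36.5% called lower. The median log2 difference was 0.27, beside -0.08 over all genes, and the median absolute difference was 0.56, beside 0.39. The 2 cycle comparisons use separate libraries but share 1 estimate of the spread for each gene. Same-numbered diestrus libraries of the genotypes also deviated together, so the comparisons are not independent. In both, 13 genes rose and 8 fell, beside 18.8% and 28.2% of all genes, none was called in opposite directions, 7 were called in WT only, 2 in HIF2A cKO only and 10 in neither. No gene passed the test of the difference between the genotypes' cycle changes, given at the end, so a call in 1 genotype only does not show that the genotypes differed. Without the 2 diestrus libraries numbered 3, 16 genes rose and 13 fell in WT, beside 25.1% and 36% of all genes, and 17 rose and 11 fell in HIF2A cKO, beside 28.4% and 38.2%.

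**Figure D2:**
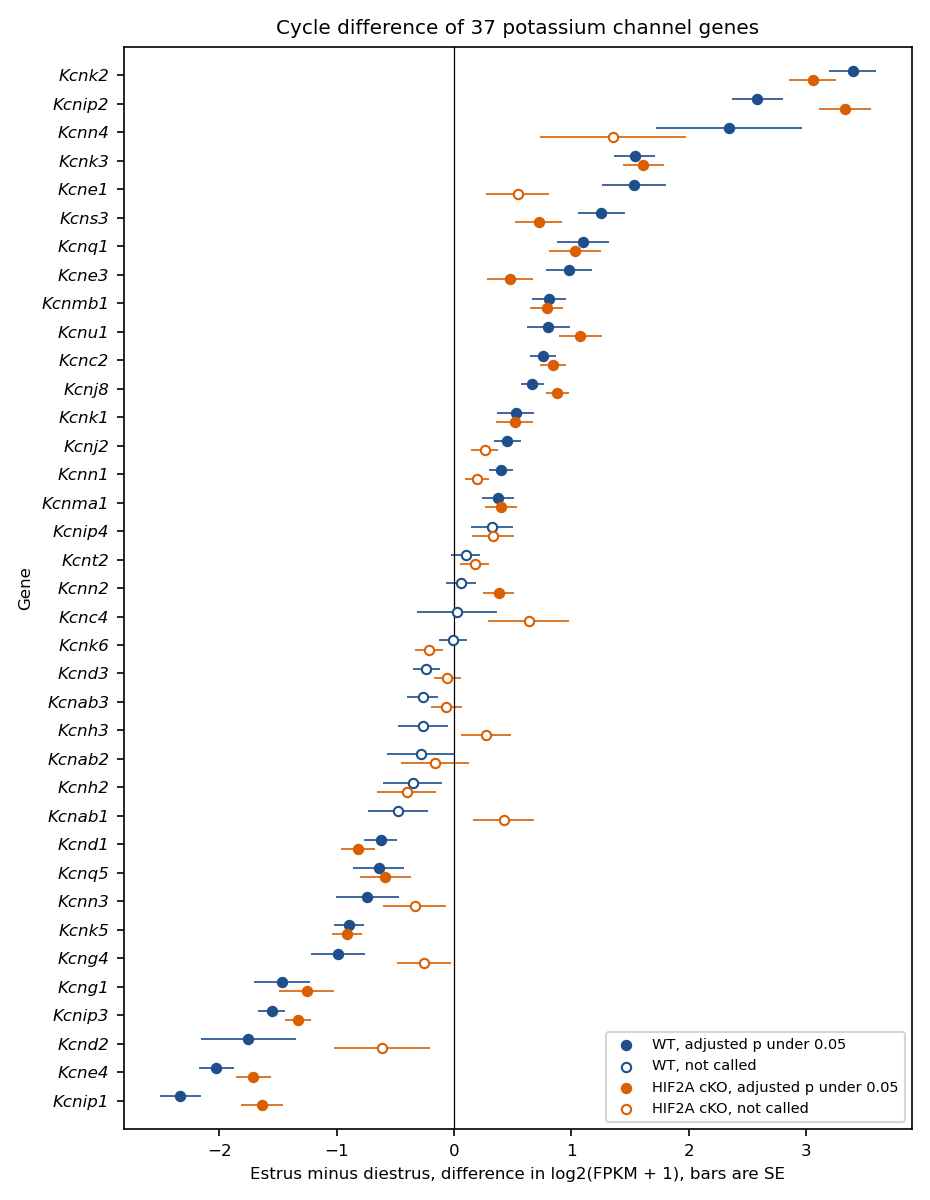
Estrus minus diestrus difference of 37 of the genes on the log2(FPKM + 1) scale, in WT (blue) and HIF2A cKO (orange), sorted by the WT value. Bars are standard errors, and filled points have an adjusted p under 0.05. Points run from 3.40 for Kcnk2 to -2.33 for Kcnip1 in WT, and Kcnip2 has the highest HIF2A cKO value, 3.33.

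The 2 largest rises and the 2 largest falls in WT were at Kcnk2, Kcnip2, Kcnip1 and Kcne4 on the log2(FPKM + 1) scale. By the ratio of mean FPKM, without the added 1, Kcnd2 fell further in WT (12.6-fold) than Kcne4, and Kcne1 rose 9.37-fold beside 9.21-fold for Kcnip2. Kcnk2 encodes TREK-1, a background channel that opens on membrane stretch and has been studied in the uterine muscle. Kcnk2 stood at 1.55, 0.556, 0.613 and 1.33 FPKM in WT diestrus and at 18.1, 22.4 and 18.9 in WT estrus libraries. In HIF2A cKO it stood at 1.62, 1.55, 0.749 and 0.742 at diestrus and at 14.7, 17.3 and 18.2 at estrus. Every estrus library was above every diestrus library, and the mean rose 19.6-fold in WT and 14.4-fold in HIF2A cKO. The rise was called in WT (log2 difference 3.40 ± 0.20, adjusted p = 9.58e-08) and in HIF2A cKO (log2 difference 3.06 ± 0.20, adjusted p = 1.36e-07).

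Kcnip2 encodes KChIP2, a calcium-binding subunit that raises the surface level of Kv4 channels. Kcnip2 stood at 1.97, 0.525, 0.877 and 2.13 FPKM in WT diestrus and at 11.96, 14.1 and 11.9 in WT estrus libraries. The HIF2A cKO libraries held 0.336, 0.153, 0.696 and 0.368 at diestrus and 12.1, 12.3 and 14.2 at estrus. The stages did not overlap in either genotype, and the estrus levels of the genotypes lay in 1 range (WT log2 difference 2.59 ± 0.22, adjusted p = 1.81e-06; HIF2A cKO log2 difference 3.33 ± 0.22, adjusted p = 1.48e-07).

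Kcnip1 encodes KChIP1, another Kv4 subunit, and moved the other way. Its WT levels were 7.59, 6.54, 4.75 and 7.92 FPKM at diestrus and 0.694, 0.411 and 0.430 at estrus. Its HIF2A cKO levels were 3.21, 3.34, 5.17 and 4.85 at diestrus and 0.875, 0.559 and 0.479 at estrus. All estrus libraries were under 1 FPKM and all diestrus libraries above 3 FPKM (WT log2 difference -2.33 ± 0.18, adjusted p = 6.58e-07; HIF2A cKO log2 difference -1.64 ± 0.18, adjusted p = 6.18e-06). Kcnip1 and Kcnip2 moved in opposite directions in both genotypes, but the selection favoured these directions for both genes. The cycle comparisons of the genotypes are also not independent.

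Kcne4 encodes a single-pass subunit that inhibits KCNQ1 channels. It stood at 25.8, 31.3, 27.02 and 26.2 FPKM in WT diestrus and at 6.005, 5.29 and 6.74 in WT estrus libraries. The HIF2A cKO values were 37.9, 38.7, 25.6 and 40.01 at diestrus and 11.6, 8.398 and 10.2 at estrus. Every estrus library was below every diestrus library, and the mean fell 4.59-fold in WT and 3.53-fold in HIF2A cKO (WT log2 difference -2.03 ± 0.15, adjusted p = 5.02e-07; HIF2A cKO log2 difference -1.71 ± 0.15, adjusted p = 1.202e-06).

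**Figure D3:**
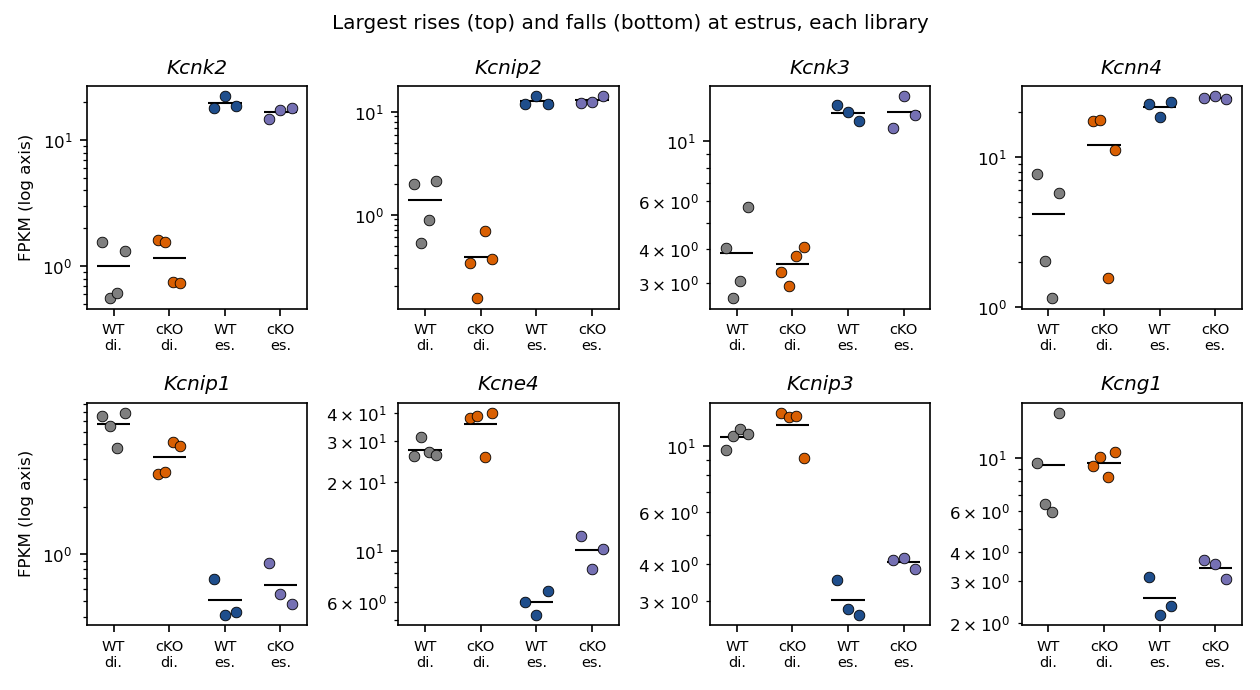
FPKM of each library on log axes for genes with large rises (Kcnk2, Kcnip2, Kcnk3, Kcnn4) and falls (Kcnip1, Kcne4, Kcnip3, Kcng1) from diestrus (di.) to estrus (es.), with lines at the group means. The stages do not overlap in either genotype in any of the 8 panels, and Kcnn4 in HIF2A cKO diestrus spans 1.55 to 17.8 FPKM.

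The promoters of these 4 genes are shown because they moved furthest in WT on the log2(FPKM + 1) scale, in opposite directions. Each line holds the 250 bases before the outermost start in the RefSeq table on GRCm38.p6, on the strand of the gene. The windows are chr1:189402274-189402523 for Kcnk2 (minus strand), chr19:45816064-45816313 for Kcnip2 (minus strand), chr11:33993194-33993443 for Kcnip1 (minus strand) and chr1:78816661-78816910 for Kcne4 (plus strand). GENCODE M21 starts Kcne4 at base 78816758, so the last 153 bases of its window lie inside the gene in that annotation. Capitals mark matches to the motifs named after the sequences.
Kcnk2: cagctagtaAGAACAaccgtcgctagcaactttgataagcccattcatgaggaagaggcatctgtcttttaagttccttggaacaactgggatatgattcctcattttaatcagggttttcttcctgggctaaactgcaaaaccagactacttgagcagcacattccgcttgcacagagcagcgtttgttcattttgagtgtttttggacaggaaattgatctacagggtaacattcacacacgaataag
Kcnip2: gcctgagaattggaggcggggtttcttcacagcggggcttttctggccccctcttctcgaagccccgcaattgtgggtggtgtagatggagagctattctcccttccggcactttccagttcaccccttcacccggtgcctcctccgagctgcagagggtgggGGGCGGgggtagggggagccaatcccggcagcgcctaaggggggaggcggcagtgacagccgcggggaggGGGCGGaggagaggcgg
Kcnip1: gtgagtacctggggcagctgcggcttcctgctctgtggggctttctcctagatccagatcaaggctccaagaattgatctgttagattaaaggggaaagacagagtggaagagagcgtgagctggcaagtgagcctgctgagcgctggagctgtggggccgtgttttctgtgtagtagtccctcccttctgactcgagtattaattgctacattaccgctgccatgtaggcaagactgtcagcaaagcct
Kcne4: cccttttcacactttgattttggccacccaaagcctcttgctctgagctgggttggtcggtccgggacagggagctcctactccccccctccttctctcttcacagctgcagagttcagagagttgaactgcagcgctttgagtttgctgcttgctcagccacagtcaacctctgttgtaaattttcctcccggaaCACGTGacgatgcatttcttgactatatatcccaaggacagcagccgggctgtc

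The motifs searched on both strands were the estrogen response element GGTCANNNTGACC and its shorter repeat unit GGTCA, the progesterone and glucocorticoid receptor motif TGTTCT, the hypoxia response core ACGTG, the GC box GGGCGG and the TATA box TATAAA. The unit GGTCA is contained in the full estrogen element, so every match to the full element is also a match to the unit. In the printed windows Kcnk2 held TGTTCT on the opposite strand 241 bases before the start. Kcnip2 held GGGCGG at 87 and 17 bases before the start, and Kcne4 held overlapping ACGTG matches on both strands at 53 and 54 bases before the RefSeq start, which is inside the GENCODE gene. Kcnip1 held none of the motifs in the printed window, but the window of another of its starts held GGTCA and GGGCGG. Kcnk2 windows that are not printed also held GGTCA and GGGCGG, each in a different window. The table held 46 promoters of 27 of the 40 genes. The full estrogen element was in 0 of the 46 and in 0.0639% of all 32851 promoters. GGTCA was in 12 of the 46 (26.1%), beside 35.2% of all promoters, and the GC box in 18 (39.1%), beside 32.7%. TGTTCT was in 6 (13%) beside 16.1%, ACGTG in 8 (17.4%) beside 16.6% and TATAAA in 0 beside 12.4%. Windows of 1 gene can overlap and are not independent.

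The GC content of the printed windows was 42.4% for Kcnk2, 66.8% for Kcnip2, 52.8% for Kcnip1 and 53.2% for Kcne4. Kcnk2 has 4 windows in the table, and the most GC-rich of the other 3 stood at 74.4%. Which of the starts is used in the uterus was not measured.

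Of the 5 two-pore channel genes, which carry the background potassium current, 3 rose and 1 fell at estrus in each genotype. These were 60% and 20%, beside 23% and 34.1% of all genes in WT and 25.5% and 36.5% in HIF2A cKO. Beside Kcnk2 (chr1:189207930-189402273, minus strand, GRCm38), the risers were Kcnk3 and Kcnk1. Kcnk3 (chr5:30588170-30625271, plus strand) encodes the acid-sensitive TASK-1. Its levels were 4.04, 2.63, 3.05 and 5.72 FPKM in WT diestrus and 13.6, 12.8 and 11.9 in WT estrus libraries. In HIF2A cKO they were 3.296, 2.93, 3.76 and 4.07 and 11.2, 14.7 and 12.5. Diestrus and estrus libraries did not overlap, and Kcnk3 rose 3.31-fold in WT (log2 difference 1.54 ± 0.18, adjusted p = 1.77e-05) and 3.65-fold in HIF2A cKO (log2 difference 1.61 ± 0.18, adjusted p = 7.02e-06).

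Kcnk1 (chr8:125995170-126030685, plus strand) encodes TWIK-1, a weakly conducting channel found in many epithelia, and had the highest mean level of the 40 genes. It stood at 34.5, 34.99, 20.4 and 24.9 FPKM in WT diestrus and at 38.7, 39.3 and 44.6 in WT estrus libraries. The HIF2A cKO levels were 34.5, 35.7, 28.2 and 32.6 at diestrus and 46.3, 48.1 and 46.8 at estrus. WT diestrus libraries 3 and 4 were the lowest, and the stages did not overlap in either genotype (WT log2 difference 0.53 ± 0.16, adjusted p = 0.0117; HIF2A cKO log2 difference 0.52 ± 0.16, adjusted p = 0.0114). In WT the call was lost without WT estrus library 4 (an adjusted p of 0.0513).

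Kcnk5 (chr14:20140057-20181809, minus strand) encodes TASK-2, an epithelial channel opened by alkaline pH, and fell at estrus. It stood at 7.61, 9.55, 6.86 and 6.66 FPKM in WT diestrus and at 3.53, 3.58 and 3.79 in WT estrus libraries. The HIF2A cKO libraries held 11.6, 12.8, 11.02 and 12.99 and 6.13, 4.704 and 7.25. Each stage was apart from the other in each genotype, and the HIF2A cKO libraries were above the WT libraries in each stage (cycle in WT log2 difference -0.89 ± 0.13, adjusted p = 9.86e-05; in HIF2A cKO log2 difference -0.91 ± 0.13, adjusted p = 5.53e-05).

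Kcnk6 (chr7:29221926-29232515, minus strand), which encodes TWIK-2, was not called over the cycle. Its levels were 3.58, 3.76, 4.51 and 3.79 FPKM in WT diestrus and 3.62, 3.67 and 4.36 in WT estrus libraries. They were 6.78, 6.801, 4.48 and 5.298 in HIF2A cKO diestrus and 4.92, 4.77 and 4.81 in HIF2A cKO estrus libraries. HIF2A cKO diestrus libraries 1 and 2 were the highest, and library 3 lay among the WT values. Without it, Kcnk6 fell at estrus in HIF2A cKO at an adjusted p of 0.0172.

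Only 2 of the 15 inward rectifier genes passed the filter, and both were higher at estrus in WT, beside 23% of all genes. Kcnj8 (chr6:142564837-142571614, minus strand) encodes Kir6.1, the pore of the ATP-sensitive channel of smooth muscle and pericytes. It stood at 25.6, 22.2, 26.1 and 28.7 FPKM in WT diestrus and at 41.6, 40.2 and 41.6 in WT estrus libraries. The HIF2A cKO values were 16.9, 17.8, 22.6 and 21.1 and 36.9, 37.5 and 35.6. The stages did not overlap in either genotype (WT log2 difference 0.67 ± 0.10, adjusted p = 0.000116; HIF2A cKO log2 difference 0.88 ± 0.10, adjusted p = 8.63e-06). The sulfonylurea receptor gene Abcc9, whose product surrounds this pore, lies 16247 bases from Kcnj8 and was not called over the cycle (WT 12.5 to 14.8 FPKM, adjusted p = 0.263; HIF2A cKO 9.82 to 13.1, adjusted p = 0.0531). The difference between the changes of the 2 genes was not tested.

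Kcnj2 encodes Kir2.1, a strong inward rectifier that stabilises the resting potential. It rose in WT from 1.03 ± 0.307 to 1.76 ± 0.104 FPKM (SD, n = 4 and 3, log2 difference 0.45 ± 0.12, adjusted p = 0.00476). In HIF2A cKO the levels were 1.304 ± 0.116 and 1.77 ± 0.258 and did not overlap, at an adjusted p of 0.06305. Without WT diestrus library 2 or 3 or HIF2A cKO estrus library 2, it passed in HIF2A cKO at adjusted p of 0.0343, 0.0312 and 0.0403.

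Among the 7 calcium- or sodium-activated channel genes, 4 rose and 1 fell in WT, and 3 rose and none fell in HIF2A cKO. In WT these were 57.1% and 14.3%, beside 23% and 34.1% of all genes. In HIF2A cKO they were 42.9% and 0%, beside 25.5% and 36.5%. Kcnma1, the pore of the large-conductance BK channel, and Kcnmb1, the smooth muscle subunit that raises its calcium sensitivity, were both higher at estrus. Kcnmb1 rose from 9.66 ± 1.96 to 17.4 ± 0.386 FPKM in WT (log2 difference 0.81 ± 0.14, adjusted p = 0.000454) and from 11.002 ± 2.28 to 19.5 ± 0.326 in HIF2A cKO (log2 difference 0.79 ± 0.14, adjusted p = 0.000407). In each genotype the stages were apart. Kcnma1 moved less, from 4.32 ± 0.761 to 5.896 ± 1.11 FPKM in WT (log2 difference 0.37 ± 0.14, adjusted p = 0.0326) and from 3.64 ± 0.5895 to 5.096 ± 0.398 in HIF2A cKO (log2 difference 0.40 ± 0.14, adjusted p = 0.0216). The WT stages overlapped for Kcnma1. Its WT call was lost without WT diestrus library 1, 2 or 4 or WT estrus library 2 or 4 (adjusted p between 0.0558 and 0.148), and its HIF2A cKO call was lost without HIF2A cKO diestrus library 4 or HIF2A cKO estrus library 1 or 2 (adjusted p between 0.0574 and 0.0695).

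Lrrc26 and Lrrc55, which encode gamma subunits of the BK channel and are not in the Kcn family, moved in opposite directions. Lrrc26, which lets BK channels open at resting voltages in secretory epithelia, rose from 1.74 to 11.9 FPKM in WT (log2 difference 2.42 ± 0.38, adjusted p = 0.000196) and from 1.598 to 14.7 in HIF2A cKO (log2 difference 2.64 ± 0.38, adjusted p = 6.796e-05). Lrrc55 fell from 1.56 to 0.134 FPKM in WT (log2 difference -1.13 ± 0.17, adjusted p = 0.000139) and from 2.43 to 0.179 in HIF2A cKO (log2 difference -1.53 ± 0.17, adjusted p = 8.63e-06).

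Kcnn4 (chr7:24370263-24386690, plus strand) encodes the intermediate-conductance channel of epithelia and lymphocytes. Its WT levels were 7.78, 2.03, 1.14 and 5.77 FPKM at diestrus and 22.8, 18.5 and 23.4 at estrus. Its HIF2A cKO levels were 17.5, 17.8, 1.55 and 11.2 at diestrus and 24.8, 25.7 and 24.6 at estrus. All estrus libraries were above all diestrus libraries, and library 3 was the lowest of each diestrus group. Kcnn4 rose in WT (log2 difference 2.34 ± 0.62, adjusted p = 0.00636), and the HIF2A cKO difference was not called (log2 difference 1.35 ± 0.62, adjusted p = 0.0757). Without HIF2A cKO diestrus library 1 or 2 the latter passed at adjusted p of 0.04696 and 0.0464. Without HIF2A cKO diestrus library 3 it was smaller and not called (log2 difference 0.69 ± 0.42, adjusted p = 0.171).

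The summed levels of several marker lists moved with the stages, among them that of the 11 epithelial markers. It ranged from 523 to 730 FPKM in WT diestrus and from 1206 to 1467 in WT estrus libraries, and from 622 to 1166 and 1519 to 1715 in HIF2A cKO. Of these markers, 9 rose and 1 fell at estrus in WT, and 8 rose and 1 fell in HIF2A cKO. Library 3 had the lowest sum of each diestrus group, as it had the lowest Kcnn4. Of the 10 smooth muscle markers, 1 rose and 5 fell in WT and 2 rose and 4 fell in HIF2A cKO, with sums of 4111 to 5081 FPKM in WT diestrus and 3794 to 4331 in WT estrus libraries. Of the 10 stromal markers, 0 rose and 8 fell in WT and 2 rose and 7 fell in HIF2A cKO. Of the 8 macrophage markers in the table, 6 rose and 0 fell in each genotype, with sums of 229 to 290 FPKM and 403 to 463 in WT and of 184 to 250.4 and 428 to 557 in HIF2A cKO. Of the 8 endothelial markers, 1 rose and 3 fell in WT and 2 rose and 2 fell in HIF2A cKO, and of the 6 pericyte markers 1 rose and 3 fell in WT and 1 rose and 4 fell in HIF2A cKO. All these counts stand beside 23% of all genes called higher and 34.1% called lower in WT and 25.5% and 36.5% in HIF2A cKO. Library 3 had the highest endothelial sum of each diestrus group (269 FPKM in WT and 221 in HIF2A cKO), the highest pericyte sum (210.1 and 167) and the highest macrophage sum. In whole-tissue RNA, fewer cells of a type and less RNA per cell cannot be told apart, and the part of these markers in the channel results was not tested.

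The small-conductance channels, opened by a rise of calcium in the cell, divided. Kcnn1 rose in WT from 2.198 ± 0.246 to 3.22 ± 0.1899 FPKM (log2 difference 0.40 ± 0.10, adjusted p = 0.00451). Its HIF2A cKO levels were 2.27 ± 0.356 and 2.74 ± 0.30998 (adjusted p = 0.1102). Kcnn2 was not called in WT (1.44 ± 0.464 and 1.51 ± 0.227 FPKM) and rose in HIF2A cKO from 1.01 ± 0.125 to 1.61 ± 0.168 (log2 difference 0.38 ± 0.13, adjusted p = 0.0226), a call lost without HIF2A cKO diestrus library 4 or HIF2A cKO estrus library 1 or 4 (adjusted p between 0.0556 and 0.0722). Kcnn3 encodes the channel SK3, known for restraining uterine contraction. It fell in WT from 10.3 ± 4.73 to 5.33 ± 0.818 FPKM (log2 difference -0.74 ± 0.27, adjusted p = 0.0325), with overlapping stages and high values in WT diestrus libraries 1 and 4. This call was lost without WT diestrus library 1 or 4 or WT estrus library 1 or 4 (adjusted p between 0.0763 and 0.106). In HIF2A cKO, Kcnn3 stood at 6.58 ± 1.65 and 4.93 ± 0.678 (adjusted p = 0.298).

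Kcnu1 (chr8:25849623-25937939, plus strand), a pH-sensitive relative of the BK pore known from sperm, rose at a low level. It stood at 0.941, 0.665, 1.37 and 1.28 FPKM in WT diestrus and at 2.82, 2.37 and 2.53 in WT estrus libraries. In HIF2A cKO it stood at 0.413, 0.229, 1.24 and 0.410 and 2.38, 2.32 and 2.005, with library 3 the highest at diestrus. Diestrus and estrus libraries did not overlap (WT log2 difference 0.80 ± 0.18, adjusted p = 0.00228; HIF2A cKO log2 difference 1.08 ± 0.18, adjusted p = 0.000221).

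The sodium-activated channel gene Kcnt2 (chr1:140246158-140612067, plus strand) was not called over the cycle. Its levels were 1.61, 0.972, 1.896 and 1.85 FPKM in WT diestrus and 1.56, 1.86 and 1.79 in WT estrus libraries, and 0.837, 0.886, 1.13 and 1.06 and 1.17, 1.28 and 1.24 in HIF2A cKO. WT diestrus library 2 lay among the HIF2A cKO values, and the other WT libraries lay above them.

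Of the 15 voltage-gated pore genes, 4 rose and 6 fell at estrus in WT and 4 rose and 5 fell in HIF2A cKO. Their shares of 26.7% higher and 40% lower in WT were near those of all genes, 23% and 34.1%, as were 26.7% and 33.3% in HIF2A cKO beside 25.5% and 36.5%. Of the 11 auxiliary subunit genes, 4 rose and 3 fell in WT and 3 rose and 3 fell in HIF2A cKO. In WT these were 36.4% and 27.3%, beside 23% and 34.1% of all genes. In HIF2A cKO they were 27.3% and 27.3%, beside 25.5% and 36.5%. The KCNQ1 channel genes moved in different directions. KCNQ1 opens slowly on depolarisation with the subunit KCNE1, is kept in the open state in epithelia by KCNE3, and is inhibited by KCNE4. Kcnq1, Kcne1 and Kcne3 rose at estrus in WT and Kcne4 fell. Kcnq1 (chr7:143106362-143427042, plus strand) stood at 9.84, 5.36, 3.73 and 6.803 FPKM in WT diestrus and at 18.01, 13.9 and 11.4 in WT estrus libraries. In HIF2A cKO the values were 5.12, 4.995, 5.77 and 4.32 and 10.8, 11.8 and 11.5. The stages did not overlap in either genotype (WT log2 difference 1.10 ± 0.22, adjusted p = 0.00107; HIF2A cKO log2 difference 1.03 ± 0.22, adjusted p = 0.00132). The antisense RNA Kcnq1ot1, which shares 121 exonic bases with Kcnq1 on the opposite strand, ranged from 0.067 to 0.142 FPKM over the libraries.

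Kcne1 (chr16:92345982-92359468, minus strand) stood at 0.122, 0.789, 0.086 and 0.174 FPKM in WT diestrus and at 3.81, 1.898 and 2.52 in WT estrus libraries. The HIF2A cKO libraries held 1.31, 1.5, 1.34 and 0.895 and 3.35, 0.987 and 3.06. The WT stages did not overlap, while HIF2A cKO estrus library 2 lay within the diestrus range. Kcne1 rose in WT (log2 difference 1.53 ± 0.27, adjusted p = 0.000413) and was not called in HIF2A cKO (log2 difference 0.54 ± 0.27, adjusted p = 0.0971), where it passed without estrus library 2 at an adjusted p of 0.005296. Kcne3 rose from 3.22 ± 1.497 to 6.98 ± 0.0798 FPKM in WT (log2 difference 0.98 ± 0.20, adjusted p = 0.001001) and from 2.16 ± 0.259 to 3.395 ± 0.245 in HIF2A cKO (log2 difference 0.48 ± 0.20, adjusted p = 0.0494). The HIF2A cKO call for Kcne3 was lost without WT diestrus library 4, HIF2A cKO diestrus library 1, 2 or 4, any WT estrus library or any HIF2A cKO estrus library (adjusted p between 0.0576 and 0.128).

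The mean level of Kcne4 at diestrus was 27.6 FPKM in WT, beside 6.43 for Kcnq1, and at estrus 6.01 beside 14.4. The order of these length-scaled levels was therefore opposite in the stages, in WT and also in HIF2A cKO (35.6 beside 5.05 at diestrus, 10.1 beside 11.3 at estrus). At estrus in HIF2A cKO the ranges were 8.398 to 11.6 for Kcne4 and 10.8 to 11.8 for Kcnq1 and overlapped.

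**Figure D4:**
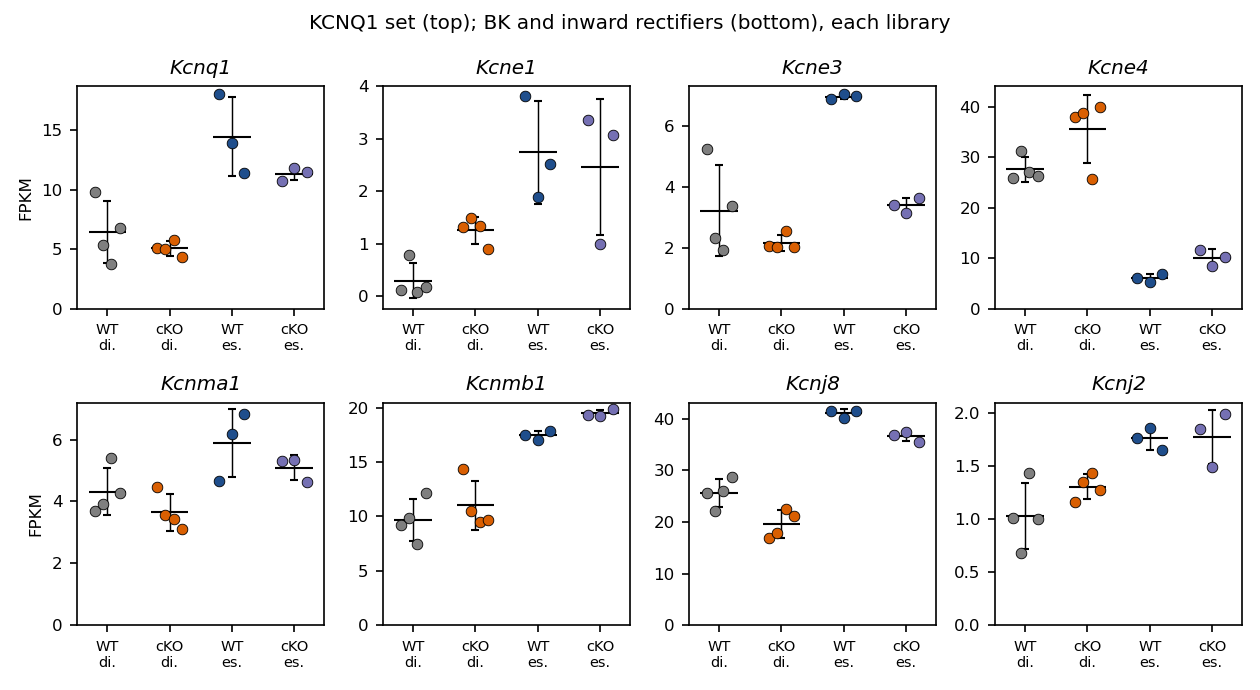
FPKM of each library, with group mean and SD, for Kcnq1 and its subunits Kcne1, Kcne3 and Kcne4 (top) and for Kcnma1, Kcnmb1, Kcnj8 and Kcnj2 (bottom), at diestrus (di.) and estrus (es.). Kcnq1 and Kcne3 are higher and Kcne4 is lower at estrus in every library of each genotype.

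The Kv4 channels carry the fast inactivating A-type current, and their KChIP and DPP subunits set its size and speed. Of the pore genes, Kcnd1 fell in both genotypes, Kcnd2 fell in WT and Kcnd3 was not called over the cycle. Kcnd1 (chrX:7822289-7838280, plus strand) stood at 1.42, 1.61, 2.75 and 1.53 FPKM in WT diestrus and at 0.727, 0.821 and 0.862 in WT estrus libraries. In HIF2A cKO it stood at 3.11, 2.78, 2.804 and 2.101 and 1.13, 1.17 and 0.967. Diestrus and estrus libraries did not overlap (WT log2 difference -0.63 ± 0.14, adjusted p = 0.00248; HIF2A cKO log2 difference -0.82 ± 0.14, adjusted p = 0.000293).

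Kcnd2 (chr6:21215503-21729805, plus strand) stood at 2.41, 3.07, 5.96 and 2.54 FPKM in WT diestrus and at 0.251, 0.279 and 0.300 in WT estrus libraries. Levels in HIF2A cKO were 0.178, 0.098, 3.46 and 0.206 and 0.068, 0.054 and 0.060. Library 3 was the highest of each diestrus group, and the other 3 HIF2A cKO diestrus libraries were below every WT estrus library. Kcnd2 fell in WT (log2 difference -1.75 ± 0.41, adjusted p = 0.00281) and was not called in HIF2A cKO (log2 difference -0.61 ± 0.41, adjusted p = 0.208). The HIF2A cKO value rested on library 3, without which the log2 difference was -0.13 ± 0.21, adjusted p = 0.613.

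Kcnd3 (chr3:105452330-105674002, plus strand) was the most abundant Kv4 pore gene. Its levels were 11.6, 15.5, 12.95 and 12.9 FPKM in WT diestrus and 9.51, 11.9 and 11.9 in WT estrus libraries. They were 9.39, 8.77, 11.7 and 9.89 in HIF2A cKO diestrus and 9.13, 10.7 and 8.65 in HIF2A cKO estrus libraries. The stages overlapped in both genotypes (adjusted p = 0.104 in WT and 0.694 in HIF2A cKO).

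Of the KChIP genes, Kcnip1 and Kcnip3 fell, Kcnip2 rose and Kcnip4 was not called, in each genotype. Kcnip3 (chr2:127456498-127522094, minus strand) encodes calsenilin, also known as the transcriptional repressor DREAM. It stood at 9.71, 10.8, 11.4 and 11.03 FPKM in WT diestrus and at 3.52, 2.81 and 2.68 in WT estrus libraries. In HIF2A cKO it stood at 12.98, 12.5, 12.6 and 9.099 and 4.13, 4.195 and 3.83. All diestrus libraries were above 9 FPKM and all estrus libraries under 5 FPKM (WT log2 difference -1.55 ± 0.11, adjusted p = 4.84e-07; HIF2A cKO log2 difference -1.33 ± 0.11, adjusted p = 1.04e-06). Kcnip4 stood at 0.945 ± 0.164 and 1.46 ± 0.517 FPKM in WT diestrus and estrus, and at 1.32 ± 0.5096 and 1.88 ± 0.334 in HIF2A cKO. Its HIF2A cKO difference passed without HIF2A cKO diestrus library 1 (adjusted p = 0.04399).

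At diestrus the highest KChIP level was that of Kcnip3, followed by Kcnip1, and at estrus that of Kcnip2 in both genotypes. Dpp6, which encodes the other Kv4 partner, fell from 9.82 to 3.08 FPKM in WT (log2 difference -1.40 ± 0.29, adjusted p = 0.00141) and from 20.5 to 6.28 in HIF2A cKO (log2 difference -1.53 ± 0.29, adjusted p = 0.000596). Kcnip1 (chr11:33629339-33993152, minus strand) and Kcnmb1 (chr11:33963013-33973641, plus strand) lie on opposite strands, with the whole of Kcnmb1 inside the span of Kcnip1 and no exonic base shared. Kcnip1 fell and Kcnmb1 rose at estrus in both genotypes.

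Kcng1, Kcng4 and Kcns3 encode silent subunits that form no channel alone and modify other voltage-gated pores. The silent subunits moved in both directions. Kcns3 (chr12:11090202-11151056, minus strand) stood at 3.08, 3.801, 3.11 and 3.4 FPKM in WT diestrus and at 9.68, 8.49 and 9.95 in WT estrus libraries. Levels in HIF2A cKO were 7.298, 5.91, 2.69 and 4.64 and 8.82, 9.104 and 8.18. The stages did not overlap, and Kcns3 rose in WT (log2 difference 1.26 ± 0.20, adjusted p = 0.000217) and in HIF2A cKO (log2 difference 0.72 ± 0.20, adjusted p = 0.00732).

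Kcng1 (chr2:168260117-168281736, minus strand) fell. Its levels were 9.57, 6.39, 5.92 and 15.7 FPKM in WT diestrus and 3.12, 2.16 and 2.35 in WT estrus libraries, and 9.27, 10.1, 8.37 and 10.7 and 3.71, 3.54 and 3.05 in HIF2A cKO. WT diestrus library 4 was the highest, and the stages did not overlap (WT log2 difference -1.47 ± 0.24, adjusted p = 0.000235; HIF2A cKO log2 difference -1.26 ± 0.24, adjusted p = 0.000539). Kcng4 (chr8:119623854-119635680, minus strand) stood at 2.23, 0.943, 1.35 and 3.27 FPKM in WT diestrus and 0.357, 0.425 and 0.479 in WT estrus libraries. In HIF2A cKO it stood at 0.356, 0.376, 1.101 and 0.861 and 0.370, 0.398 and 0.368. WT diestrus libraries 1 and 4 were the highest, and HIF2A cKO diestrus libraries 1 and 2 lay at the estrus level. Kcng4 fell in WT (log2 difference -0.99 ± 0.23, adjusted p = 0.00288) and was not called in HIF2A cKO (adjusted p = 0.3603).

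Kcnc2 and Kcnc4 encode voltage-gated pore subunits of the Kcnc group. Kcnc2 rose at a level near the filter, from 0.0945 ± 0.0377 to 0.856 ± 0.188 FPKM in WT (log2 difference 0.76 ± 0.11, adjusted p = 8.43e-05) and from 0.143 ± 0.0559 to 1.06 ± 0.255 in HIF2A cKO (log2 difference 0.84 ± 0.11, adjusted p = 2.34e-05). Kcnc4 was not called, with 0.567 to 3.42 FPKM in WT diestrus, 0.992 to 1.97 in WT estrus, 0.067 to 1.28 in HIF2A cKO diestrus and 0.723 to 1.43 in HIF2A cKO estrus libraries. Library 3 was its highest in each diestrus group. Without HIF2A cKO diestrus library 3, Kcnc4 rose at estrus in HIF2A cKO at an adjusted p of 0.0247.

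Kcnq5 encodes a Kv7 channel that holds smooth muscle and nerve cells near rest. Kcnq5 fell from 1.45 ± 0.734 to 0.535 ± 0.255 FPKM in WT (log2 difference -0.64 ± 0.22, adjusted p = 0.02299) and from 1.23 ± 0.493 to 0.467 ± 0.136 in HIF2A cKO (log2 difference -0.59 ± 0.22, adjusted p = 0.0321). The WT call for Kcnq5 was lost without WT diestrus library 3 or WT estrus library 1 or 2 (adjusted p between 0.0552 and 0.0949), and the HIF2A cKO call without HIF2A cKO diestrus library 3 or HIF2A cKO estrus library 2 or 4 (adjusted p between 0.0741 and 0.1003).

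Kcnh3, a neuronal relative of Kcnh2, was not called in any comparison (means of 2.18, 1.53, 1.399 and 1.89 FPKM, the first pair in WT and the second in HIF2A cKO, each at diestrus and then at estrus). It passed in WT over the cycle without WT diestrus library 2 (adjusted p = 0.0289).

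The 3 Kcnab genes encode cytoplasmic beta subunits that bind Shaker-type pores, none of which passed the filter. No Kcnab gene was called over the cycle. Kcnab1 (chr3:65109384-65378223, plus strand) stood at 2.51, 2.52, 6.92 and 2.94 FPKM in WT diestrus and 1.86, 2.34 and 2.36 in WT estrus libraries. In HIF2A cKO it stood at 1.73, 1.14, 2.79 and 1.47 and 2.84, 2.42 and 2.69. Library 3 was the highest of each diestrus group, and without WT diestrus library 3 the HIF2A cKO rise passed at an adjusted p of 0.0343. Kcnab2 ranged from 1.65 to 2.24 FPKM in 12 libraries and stood at 5.21 and 5.20 in the diestrus libraries numbered 3. Kcnab3 (chr11:69326258-69333042, plus strand) stood at 1.83, 0.946, 1.11 and 1.63 FPKM in WT diestrus and 1.25, 0.800 and 0.839 in WT estrus libraries. Levels in HIF2A cKO were 0.878, 0.906, 0.699 and 0.800 and 0.778, 0.684 and 0.745, below the WT libraries of the same stage. In WT, Kcnab3 passed over the cycle without diestrus library 2 or estrus library 1 (adjusted p = 0.0308 and 0.0481).

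Genes that work beside these channels were taken from 3 lists chosen by function. Their counts stand beside 23% of all genes called higher and 34.1% called lower in WT and 25.5% and 36.5% in HIF2A cKO. Of 18 partner genes 12 passed the filter, with 2 higher and 7 lower at estrus in each genotype. Those that rose were Lrrc26 and Akap9, which encodes a scaffold of the KCNQ1 complex. Of 22 genes of potassium pumps and cotransporters 17 passed the filter, and 5 rose and 3 fell in WT, 9 and 2 in HIF2A cKO. Fxyd3, a regulator of the sodium pump, rose from 69.8 to 307 FPKM in WT (log2 difference 2.15 ± 0.27, adjusted p = 3.22e-05). The sodium-potassium-chloride cotransporter gene Slc12a2 rose from 24.5 to 40.9 FPKM in WT (log2 difference 0.71 ± 0.11, adjusted p = 0.000163). Of 32 calcium, chloride and cation channel genes 22 passed the filter, and 7 rose and 5 fell in WT, 8 and 4 in HIF2A cKO. The L-type calcium channel gene Cacna1c rose in WT from 10.3 to 16.3 FPKM (log2 difference 0.65 ± 0.17, adjusted p = 0.00591), and the T-type gene Cacna1g fell from 12.9 to 5.26 (log2 difference -1.13 ± 0.17, adjusted p = 0.000143).

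At diestrus, 4 of the 40 genes were higher in HIF2A cKO than in WT and 10 were lower, beside 13.8% of all genes called higher and 10% called lower. The median log2 difference was -0.10, beside 0.02 over all genes, and the median absolute difference was 0.36, beside 0.18. The higher genes were the two-pore channels Kcnk5 and Kcnk6, the subunit gene Kcne1 and the Kv4 pore gene Kcnd1. Among the lower genes were Kcnd2, Kcng4, Kcnip2, Kcnab1, Kcnip1, Kcnd3, Kcnj8, Kcnt2 and Kcnab3.

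These calls depended on how the libraries were used. Same-numbered diestrus libraries deviated together, and the calls above came from a fit without these numbers. A block for the replicate number over all 14 libraries assumes the same shift in both stages. With it, 7 genes were higher and 12 lower, beside 18.8% and 14.7% of all genes. In the diestrus libraries alone 2 were higher and 0 lower by limma, beside 1.72% and 1.09%, with 5 higher and 10 lower at an unadjusted p under 0.05, beside 16.8% and 12.9%. In the diestrus libraries alone with the block 2 were higher and 5 lower, beside 8.39% and 5.86%. Without both libraries numbered 3 the counts were 6 and 11, beside 17.9% and 14.3%. Single libraries also moved them. Without WT diestrus library 1, or without WT diestrus library 4, 2 genes were higher and 3 lower, beside 8.75% and 5.82% of all genes in the first case and 9.08% and 6.37% in the other. Without HIF2A cKO diestrus library 1 the counts were 2 and 2, beside 7.38% and 4.97%. Without library 2 they were 2 and 0, beside 6.25% and 4.17%, with 10 lower at an unadjusted p under 0.05, beside 12.8%. Without library 3 they were 7 and 11, beside 20% and 15.2%. Kcnk5 was called under every alternative. Its HIF2A cKO diestrus libraries held 11.6, 12.8, 11.02 and 12.99 FPKM and its WT diestrus libraries 7.61, 9.55, 6.86 and 6.66, with no overlap (log2 difference 0.61 ± 0.12, adjusted p = 0.00649).

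**Figure D5:**
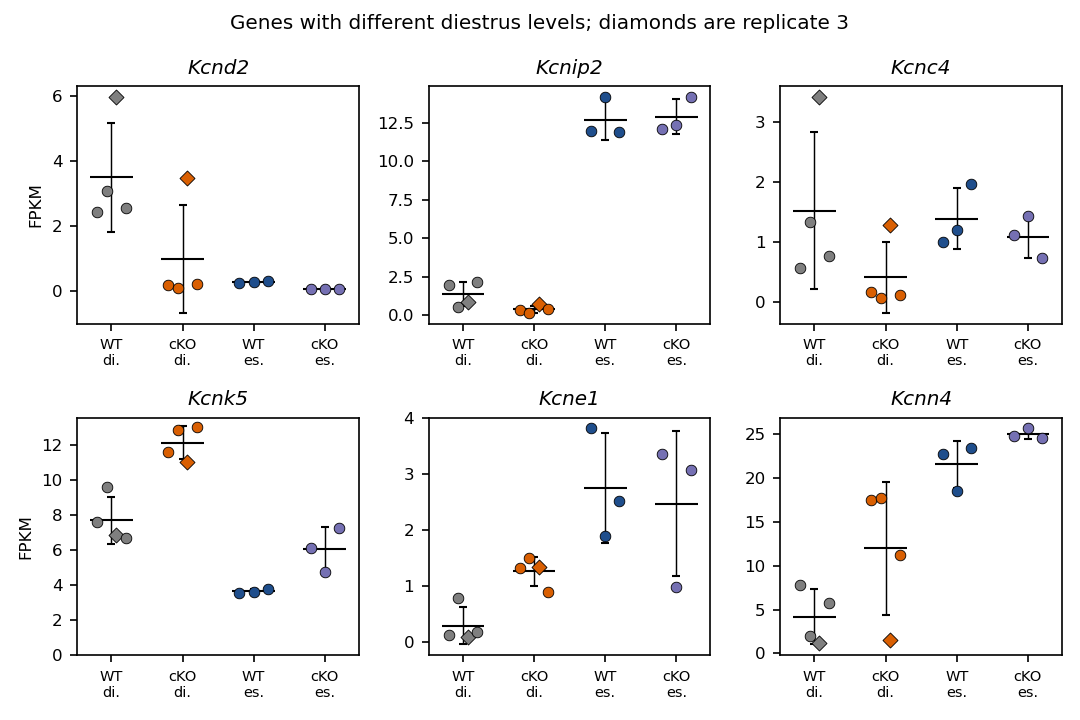
FPKM of each library with group mean and SD for Kcnd2, Kcnip2, Kcnc4, Kcnk5, Kcne1 and Kcnn4. Groups are WT and HIF2A cKO (cKO) at diestrus (di.) and estrus (es.). Kcnc4 and Kcnn4 were not called between the genotypes at diestrus by limma (adjusted p = 0.0831 and 0.141). Diamonds are the diestrus libraries numbered 3, which are the highest of their group for Kcnd2 and Kcnc4 and the lowest for Kcnn4, while Kcnk5 is higher in every HIF2A cKO library than in any WT library of the same stage.

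Kcne1 was higher in HIF2A cKO, with 0.895 FPKM or more in each diestrus library beside 0.789 or less in WT (log2 difference 0.83 ± 0.25, adjusted p = 0.0311). It was called in the diestrus libraries alone, and its call in the fit of 14 libraries was lost without WT diestrus library 1, 3 or 4 or HIF2A cKO diestrus library 1 or 2 (adjusted p between 0.0709 and 0.0913). Without both libraries numbered 3 its adjusted p was 0.0794. Kcnk6 was higher (log2 difference 0.47 ± 0.11, adjusted p = 0.0122), with HIF2A cKO library 3 within the WT range, and its adjusted p was 0.0709 in the diestrus libraries alone and 0.0787 with the block. Kcnd1 was higher (log2 difference 0.40 ± 0.13, adjusted p = 0.0437), with WT library 3 within the HIF2A cKO range, and its call was lost without WT diestrus library 1, 2 or 4, HIF2A cKO diestrus library 1, 2 or 3, any WT estrus library or any HIF2A cKO estrus library (adjusted p between 0.0557 and 0.121). With the block in the diestrus libraries alone its adjusted p was 0.0955.

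The largest difference was that of Kcnd2 (log2 difference -1.41 ± 0.38, adjusted p = 0.0203), 1 of the 3 genes named above for which the selection favoured a higher WT level. Each WT library had a higher value than the HIF2A cKO library of the same number, and HIF2A cKO library 3, at 3.46 FPKM, lay within the WT range. Its call was lost without WT diestrus library 3 or HIF2A cKO diestrus library 1 or 2 (adjusted p between 0.0526 and 0.0728) and in the diestrus libraries alone (adjusted p = 0.0965). Its partners Kcnip2 (log2 difference -0.72 ± 0.20, adjusted p = 0.0245) and Kcnip1 (log2 difference -0.58 ± 0.16, adjusted p = 0.0236) were also lower, each with overlapping groups. The call for Kcnip2 was lost without WT diestrus library 1 or 4 or HIF2A cKO diestrus library 1 or 2 (adjusted p between 0.0627 and 0.0828), and that for Kcnip1 without WT diestrus library 1 or 4 or HIF2A cKO diestrus library 1 or 2 (adjusted p between 0.0657 and 0.0819). In the diestrus libraries alone with the block, the adjusted p was 0.0656 for Kcnip2 and 0.0845 for Kcnip1. Kcnd3 was lower (log2 difference -0.38 ± 0.11, adjusted p = 0.0267), with HIF2A cKO library 3 just above WT library 1. Its call was lost without WT diestrus library 2 or 4 or HIF2A cKO diestrus library 1 or 2 (adjusted p between 0.0524 and 0.0908), and its adjusted p in the diestrus libraries alone with the block was 0.0732. The Kv4 partner Dpp6 was higher in HIF2A cKO (9.82 and 20.5 FPKM, log2 difference 0.94 ± 0.27, adjusted p = 0.0278), opposite to Kcnd2 and Kcnip2.

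Kcnj8 was lower (log2 difference -0.38 ± 0.09, adjusted p = 0.0134), with HIF2A cKO library 3 just above WT library 2, and its call was lost without HIF2A cKO diestrus library 2 (an adjusted p of 0.05001). Its partner Abcc9 had means of 12.5 FPKM in WT and 9.82 in HIF2A cKO (adjusted p = 0.138). In the diestrus libraries alone, the adjusted p was 0.0794 for Kcnj8.

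Kcng4 and Kcnab3 are the other genes for which the selection favoured a higher WT level. Kcng4 was lower in HIF2A cKO (log2 difference -0.78 ± 0.21, adjusted p = 0.0225), with overlapping groups, and its call was lost without WT diestrus library 1 or 4 or HIF2A cKO diestrus library 1 or 2 (adjusted p between 0.0552 and 0.0773). Kcnt2 was lower (log2 difference -0.37 ± 0.11, adjusted p = 0.0352), and its call was lost without WT diestrus library 1, 3 or 4 or HIF2A cKO diestrus library 1 or 2 (adjusted p between 0.0779 and 0.0989), and without both libraries numbered 3 (adjusted p = 0.0557). The beta subunit gene Kcnab1 was lower (log2 difference -0.70 ± 0.24, adjusted p = 0.0492), with each WT library above the HIF2A cKO library of the same number. Its call was lost without WT diestrus library 1, 3 or 4, HIF2A cKO diestrus library 1, 2 or 4, any WT estrus library or any HIF2A cKO estrus library (adjusted p between 0.0513 and 0.147), and without WT diestrus library 3 the log2 difference was -0.42 ± 0.16, adjusted p = 0.08003. Kcnab3 was lower without overlap (log2 difference -0.37 ± 0.12, adjusted p = 0.0442), and its call was lost without WT diestrus library 1 or 4, any HIF2A cKO diestrus library, WT estrus library 2 or 4 or any HIF2A cKO estrus library (adjusted p between 0.0546 and 0.121). With the block in the diestrus libraries alone, the adjusted p was 0.0571 for Kcng4, 0.0705 for Kcnt2 and 0.0914 for Kcnab3.

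Some genes not called at diestrus passed without HIF2A cKO diestrus library 3 or with the replicate block. Kcnn4 had means of 4.18 FPKM in WT and 12.01 in HIF2A cKO (log2 difference 1.20 ± 0.58, adjusted p = 0.141), and without that library its adjusted p was 0.00403. With the block over 14 libraries it was 0.0142. Without the same library, Kcns3 passed as higher (adjusted p = 0.00167), as did Kcne4 (0.00465), and Kcnc4 (0.0159) and Kcnu1 (0.00363) passed as lower. With the block over all 14 libraries, Kcns3 (0.04799), Kcnc4 (0.00554) and Kcnu1 (0.0198) passed in the same directions. Kcnc4 was lower in the HIF2A cKO library of each same-numbered pair, and it also passed with the block in the diestrus libraries alone (0.0287). Without WT diestrus library 2, Kcnh3 (0.0213), Kcnn2 (0.045999), Kcnn3 (0.0446) and Kcnu1 (0.0432) passed as lower, and without WT diestrus library 3 Kcne3 did (0.0476). In the diestrus libraries, the summed epithelial markers ranged from 523 to 730 FPKM in WT and from 622 to 1166 in HIF2A cKO. Of the 11 markers, 3 were higher and 1 lower in HIF2A cKO, beside 13.8% and 10% of all genes. The part of these markers in these results was not tested.

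At estrus, none of the 40 genes was called between the genotypes by limma, beside 0.07% of all genes called higher and 0.035% called lower, and 6 had an unadjusted p under 0.05, beside 7.37% of all genes. Among the 6 were Kcnk5, Kcne4, Kcne3, Kcnip3 and Kcnt2. The median absolute log2 difference of the 40 genes was 0.18, beside 0.09 over all genes. Kcnk5 stood at 3.63 ± 0.138 FPKM in WT and 6.03 ± 1.28 in HIF2A cKO (log2 difference 0.59 ± 0.14, adjusted p = 0.209). The KCNQ1 subunits had opposite signs, with Kcne3 at 6.98 ± 0.0798 and 3.395 ± 0.245 FPKM (log2 difference -0.86 ± 0.21, adjusted p = 0.232) and Kcne4 at 6.01 ± 0.7295 and 10.1 ± 1.62 (log2 difference 0.66 ± 0.16, adjusted p = 0.228). None of these 3 genes overlapped between the genotypes at estrus, which alone says little with 3 libraries in each group. Kcnab1 and Kcnn4 did not overlap either, at unadjusted limma p of 0.487 and 0.753. The share of all genes without overlap is not given. Kcne3 passed without WT diestrus library 1 (adjusted p = 0.0321), and Kcne4 without HIF2A cKO diestrus library 3 (0.0411). Neither library is in the estrus comparison, so the log2 differences were unchanged. In the estrus libraries alone, Kcne4 and Kcnh2 passed as higher and Kcne3 as lower (adjusted p = 0.0492, 0.0436 and 0.004803), beside 1.33% of all genes called higher and 0.995% called lower.

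The difference between the 2 cycle changes (the change in HIF2A cKO less the change in WT) was called for none of the 40 genes by limma, beside 0.014% of all genes called higher and 0.021% called lower. An unadjusted p under 0.05 was found for 6 genes, beside 17.6% of all genes, among them Kcnip1, Kcne1, Kcnab1, Kcnip2 and Kcng4. Their differences between the changes were 0.70 ± 0.25 for Kcnip1, -0.99 ± 0.38 for Kcne1, 0.90 ± 0.37 for Kcnab1 and 0.75 ± 0.31 for Kcnip2 on the log2 scale, with adjusted p from 0.203 to 0.269 over the 6. With the replicate block the interaction passed for Kcnab1 (adjusted p = 0.0324) and Kcnd2 (0.0424), both positive, beside 1.62% of all genes called higher and 1.61% called lower. Without HIF2A cKO diestrus library 3, where 3.71% of all genes were called higher and 4.56% lower, this interaction passed for Kcnd2 (adjusted p = 0.0115) and Kcns3 (0.0241). Without both libraries numbered 3 it was positive and passed for Kcnd2 (0.000933), Kcnab1 (0.0147) and Kcnip1 (0.0233) and negative for Kcns3 (0.0321). Of all genes, 3.98% were then called higher and 4.38% lower. For Kcnd2 and Kcng4 the selection favoured a fall at estrus and a higher WT level, and so a larger fall in WT. It also favoured the directions between stages of Kcnip1 and Kcnip2. Outside library 3, Kcnd2 stood at 0.098 to 0.206 FPKM in HIF2A cKO diestrus, where little further fall could be seen.

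All 40 genes were found in GENCODE M21 on GRCm38. Exonic bases of 18 of them are shared with another gene, for 17 only with genes on the opposite strand. Whether the reads were counted by strand is not given in the sources used here, so fragments of such pairs cannot be told apart. Kcnma1 shares 1016 bases and Kcnk2 604 with an opposite-strand gene, and Kcnab2 shares 125 bases with Gm16334 on its own strand.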

How the data were processed

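The authors deposited 1 table of FPKM values with 31274 gene symbols for the 14 libraries. RNA was purified on columns with DNase treatment and libraries were made with a TruSeq RNA kit, per the labels' protocols. TopHat2 2.0.4, Cufflinks 2.0.2 and the build mm10 are named in the submitters' processing notes. No annotation or strand setting is given in the sources used here. FPKM keeps no read counts, so the depth is unknown.

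The filter kept genes that reached 1 FPKM in 3 or more libraries. The collagen genes Col1a1, Col1a2 and Col3a1 and the genes Ltf, Fcgbp, Eef1a1 and C3 were left out because they were listed at 0 in a whole group and above 50 FPKM in another. For the remaining 14278 genes, limma 3.58.1 (R 4.3.3) was fitted to log2(FPKM + 1), with a mean per group over all 14 libraries, an eBayes trend and the Benjamini-Hochberg adjustment at 0.05. On this scale the change of a gene of low FPKM is understated. Some genes, in the counts, are not reported here by name or value. Coordinates are from GENCODE M21 and promoters from RefSeq. The genes, lists and comparisons were chosen with earlier results of these data known.

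Values in every library are given for genes called over the cycle with an absolute log2 difference of at least 1, genes called between genotypes and the 5 highest means. Kcnn3 and the genes of other families named beside the channels were named from the lists after their values were seen. The residuals of same-numbered diestrus libraries correlated at 0.321, 0.115, 0.622 and 0.217, so the numbers were taken to pair the libraries at diestrus. At estrus (0.0805, 0.0958 and -0.0475) and between stages they were not. The main fit held no term for the numbers. A block over all 14 libraries gives each number the same shift in both stages, although residuals between stages correlated at -0.135 to 0.0181.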

Additional observations from a re-analysis of the deposited data

Results flagged for a closer look

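Among 80 tests of a single library against the other 3 of its diestrus group, 1 for each gene in each genotype, 8 found a library far from the rest by Dixon's criterion, where chance gives about 1 in 20. Of these 8, 6 were libraries numbered 3. HIF2A cKO diestrus library 3 stood apart for Kcnd2 at 3.46 FPKM, Kcnc4 at 1.285 FPKM, Kcne3 at 2.55 FPKM and Kcne4 at 25.6 FPKM. WT diestrus library 3 stood apart for Kcnab1 at 6.92 FPKM and Kcnab2 at 5.21 FPKM. Kcne1 stood at 0.789 FPKM in WT diestrus library 2, and Kcnip3 at 9.10 FPKM in HIF2A cKO diestrus library 4.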

How the results depend on the processing

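Counts of genes called are given as higher and lower. No gene changed direction while called under any alternative, and 23 of the 28 WT cycle calls, 19 of the 23 HIF2A cKO cycle calls and 1 of the 14 diestrus genotype calls held under every alternative in which the gene was tested. With a mean of at least 5 FPKM, where 18 of the 40 genes were tested, the counts were 10 and 5 over the WT cycle, 9 and 5 over the HIF2A cKO cycle and 1 and 3 at diestrus. With no filter, 2 genes were higher at diestrus. With library weights, 10 and 19 were called at diestrus, 5 and 2 at estrus and 12 and 4 in the interaction. For the mean of at least 5 FPKM, no filter and the library weights, the share of all genes called is not given. Those counts therefore cannot be set against all genes. In fits of only the libraries compared, 2 and 0 were called at diestrus and 2 and 1 at estrus. With the replicate block, 7 were higher at diestrus and 2 in the interaction, and with the block in only the libraries compared 2 and 5 were called at diestrus and 1 was lower at estrus. The block in the fit of 14 libraries moved no other count by over 1.5 times. Without the diestrus libraries numbered 3, 1 was higher at estrus and 3 and 1 were called in the interaction. Leaving out each library in turn gave 2 to 7 higher and 0 to 13 lower at diestrus, 0 to 1 higher and 0 to 1 lower at estrus, and 0 to 1 higher and 0 to 1 lower in the interaction. Shares of all genes are given above for some of these omissions only. At estrus they are given neither with the block nor without the libraries numbered 3. These ranges and estrus counts cannot be set against all genes either. The cause of the changes in these counts was not tested. The last use of the block and the omission of the libraries numbered 3 were chosen after seeing the data. FPKM gives no counting error, and genes near 1 FPKM are the least precise.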
